A study of Caenorhabditis elegans with 3 samples.

Results

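Argonaute proteins and the enzymes that make, copy and protect small RNAs were examined as a group in adult Caenorhabditis elegans hermaphrodites. The genes were chosen by name: 46 listed symbols of the piRNA, siRNA and miRNA pathways, plus every gene called wago with a number. Probes that carried 1 such symbol and no other were found for 38 of the 46 listed symbols and for 5 wago genes. These 43 genes, read by 46 probes, all had a value on all 3 arrays and make up the set, out of 15092 genes measured. No probe of its own was found for ppw-1, ppw-2, rrf-1, cde-1, eri-5, rde-10 and rde-11, and mut-2 is another name of rde-3, which was measured.

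The adults, which carry the submitters' unexplained code TP09, were represented by 3 RNA preps, hybridised to 1 two-colour array each. The opposite channel of every array held a mixed reference RNA of wild-type worms. The labels give neither the adults' genotype nor their age in days, nor which stages and sexes went into the reference, nor the cultures behind each prep, so the spread between preps, and the p-values that rest on it, may be technical. Each value below is the log2 of a ratio, adult on top and reference beneath. That direction is the likely one from the order of the labels and is not stated; were it the other way round, each sign here would turn.

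Small RNAs guide Argonaute proteins to matching transcripts. In C. elegans, PRG-1 carries piRNAs in the germ line, ERGO-1, RDE-1, ALG-3 and ALG-4 carry primary siRNAs, and ALG-1 and ALG-2 carry most miRNAs. The targets of primary Argonautes are copied by RNA-dependent RNA polymerases into secondary siRNAs, which load onto CSR-1 and onto the worm-specific Argonautes (the WAGO group). A large part of this machinery sits in or beside the P granules of germ cells, while NRDE-3, the miRNA Argonautes and the antiviral helicase DRH-1 are best known for work in somatic tissues.

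Most of the genes stood above the reference in adults, and the Argonaute genes of the germ line reached furthest. At an adjusted p under 0.05 (limma, Benjamini-Hochberg over all genes), 31 of the 43 were higher in adults, 1 was lower and the other 11 fell short of the threshold. Over all 15092 genes, 20.9% were higher and 23.5% were lower, or 44.4% either way. The median log2 ratio was 0.89 for the 43 genes, a 1.85-fold higher level, and -0.02 for all genes. Over 2-fold higher levels were called for 18 of the 43 and for 6.53% of all genes. Tested against a 1.5-fold change, 16 of the 43 were higher, against 6.04% higher among all genes. The array number limits the precision, and the median SD over n = 3 arrays was 0.22 for the 43 genes and 0.21 for all.

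Adult worms carry germ cells and embryos in amounts that a mixed reference need not match, and in RNA from whole animals a larger number of cells cannot be told apart from more RNA per cell. Germ-cell markers, made up of genes of P granules and meiosis and the regulators gld-1 and fbf-2, were higher in adults for 13 of 13 genes. Their median was 1.37, with a range of 0.67 to 2.50. Oocyte and eggshell markers were higher for 11 of 11 genes (median 1.46). Sperm markers were lower for 11 of 14 genes, the other 3 not passing, and their median was -0.76. Markers of neurons (median -0.79, 9 of 14 lower) and of the larval epidermis (median -1.46, 10 of 13 lower) also lay below the reference. Those of muscle were 1 higher and 4 lower of 10, and those of intestine were 3 higher and 4 lower of 10. Beside these marker counts, 20.9% of all genes were higher and 23.5% were lower. The part of these tissue differences in the values below was not tested.

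**Figure D1:**
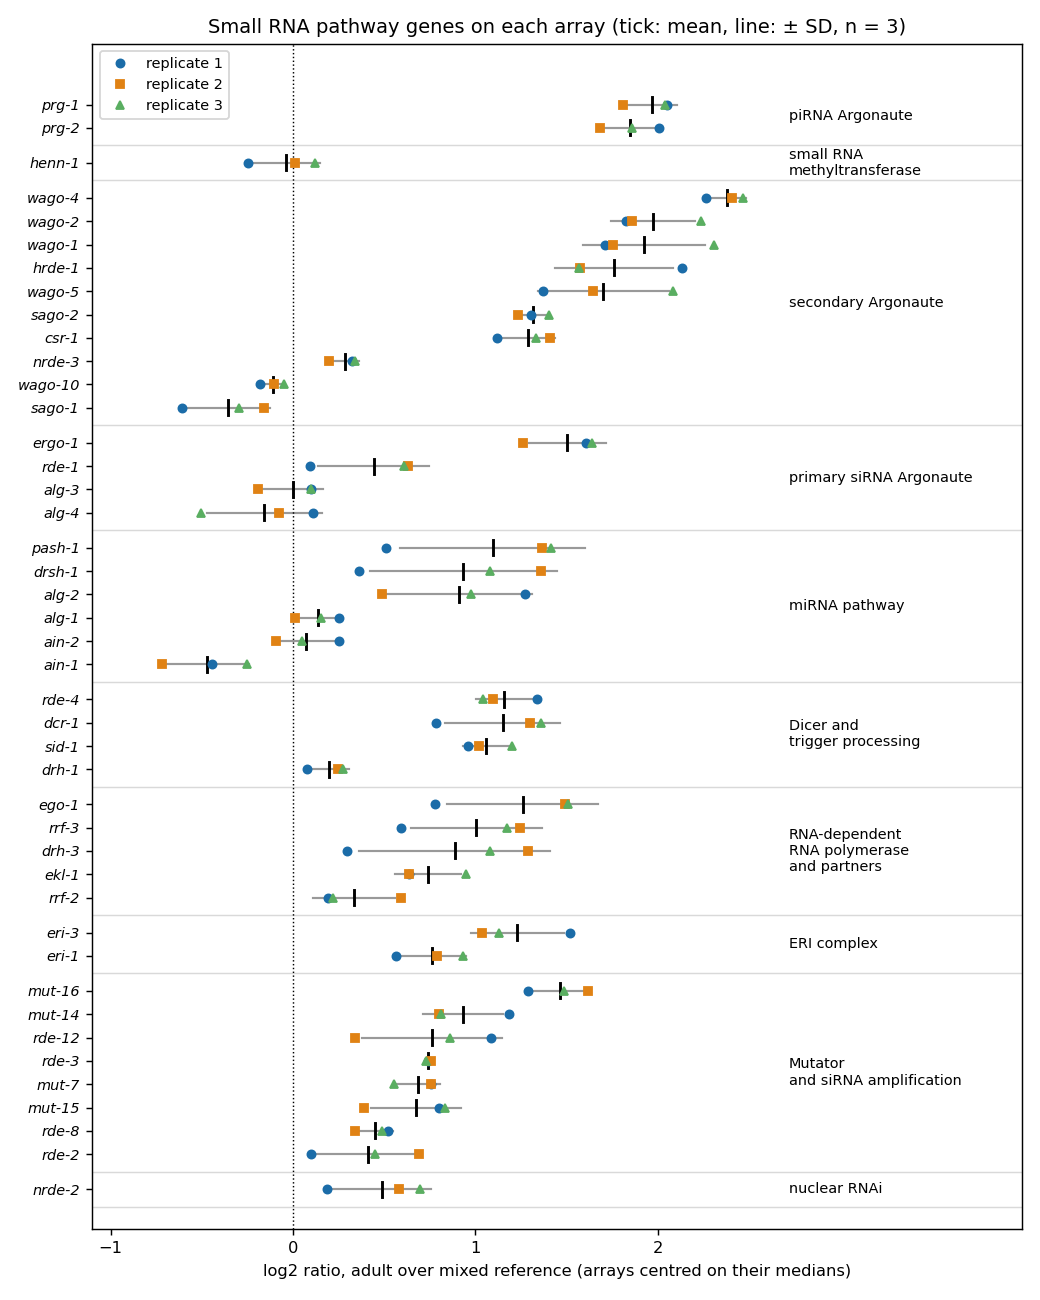
Log2 ratio of adult over mixed reference for each of the 43 genes, grouped by role; symbols are the 3 arrays, ticks the means and lines the SD (n = 3). The secondary Argonautes run from wago-4 at 2.38 to sago-1 at -0.36, the widest span of any role drawn.

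The piRNA Argonautes were among the genes with the highest ratios. On replicates 1 to 3, prg-1 (D2030.6) stood at 2.05, 1.81 and 2.04. The closely related prg-2 (C01G5.2) stood at 2.01, 1.68 and 1.86. All 6 values lay between 1.68 and 2.05. The difference of prg-1 minus prg-2 was 0.04, 0.12 and 0.18 on the 3 arrays, a mean of 0.12 ± 0.07 (SD, n = 3). This small difference was not tested, and related sequences can share signal on an array. The mean of prg-1 was 1.97 ± 0.14, or 3.91-fold above the reference (adjusted p = 5.81e-05), and 52 genes of the 15092 ranked above it. The mean of prg-2 was 1.85 ± 0.16 (adjusted p = 7.36e-05). In contrast, henn-1 (C02F5.6), whose product methylates the ends of piRNAs and of some siRNAs, gave -0.25, 0.01 and 0.12 on the same arrays. Its mean of -0.04 did not pass (adjusted p = 0.837), with a 95% interval of -0.35 to 0.27.

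Among the Argonautes of secondary siRNAs, wago-4 (F58G1.1), which acts in the germ line in the inheritance of RNA interference, had the highest ratio of all 43 genes. It stood at 2.27, 2.41 and 2.47, which is a mean of 2.38 ± 0.10 or a 5.21-fold higher level (adjusted p = 2.87e-05), and it ranked 25 among all genes. The germline Argonaute gene wago-1 (R06C7.1) gave 1.71, 1.75 and 2.31, with replicate 3 the highest. The values of wago-2 (F55A12.1) were alike, at 1.83, 1.86 and 2.24. Those of wago-5 (ZK1248.7) were 1.37, 1.64 and 2.08, again highest on replicate 3. The means of the 3 genes were 1.93 ± 0.33, 1.97 ± 0.23 and 1.70 ± 0.36, and each passed (adjusted p = 0.000205 or lower).

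The nuclear Argonaute of the germ line, hrde-1 (C16C10.3), needed for silencing that lasts over generations, stood at 2.13, 1.58 and 1.57. Its somatic counterpart nrde-3 (R04A9.2), which carries siRNAs into the nuclei of somatic cells, stood at 0.32, 0.19 and 0.34. The 2 sets of values did not overlap, and hrde-1 minus nrde-3 was 1.81, 1.38 and 1.23 on the 3 arrays. The mean of hrde-1 was 1.76 ± 0.32, a 3.39-fold higher level (adjusted p = 0.000157). That of nrde-3 was 0.29 ± 0.08 and did not pass (adjusted p = 0.0971). It passed when arrays were centred within runs of table rows (0.33, adjusted p = 0.0435) and with array weights (0.30, adjusted p = 0.0292). Under the other settings it did not.

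The essential Argonaute csr-1 (F20D12.1), whose siRNAs match most genes expressed in germ cells, gave 1.12, 1.41 and 1.33, lower than wago-4 by about 1.09 ± 0.08. Its mean of 1.29 ± 0.15 was a 2.44-fold higher level (adjusted p = 0.000241). The Argonaute gene sago-2 (F56A6.1) gave 1.30, 1.24 and 1.40, close to csr-1, whereas sago-1 (K12B6.1) gave -0.61, -0.16 and -0.30. These 2 genes, both known from somatic RNA interference, thus lay on opposite sides of the reference on every array. The mean of sago-2 was 1.31 ± 0.09 (adjusted p = 0.000189), and that of sago-1 was -0.36 ± 0.23 (adjusted p = 0.0733). With arrays centred within runs of rows sago-1 averaged -0.08 (adjusted p = 0.578), and its replicate 2 turned to 0.01, while with array weights it was called lower (-0.29, adjusted p = 0.0415). A pair of further probes, which the array annotation gives to both ppw-1 and sago-2, stood at 1.28 ± 0.09 and 1.19 ± 0.14. How much of the sago-2 value belongs to ppw-1, a gene of germline RNA interference, was not tested. The Argonaute gene wago-10 (T22H9.3), known from sperm-producing germ cells, gave -0.18, -0.10 and -0.05 and did not pass (adjusted p = 0.492).

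The Argonautes of primary siRNAs also spread widely. The ratio of ergo-1 (R09A1.1), which acts in oocytes and embryos, was 1.61, 1.26 and 1.64, on average 2.84-fold above the reference, with an SD of 0.21 on the log2 scale (adjusted p = 0.000169). The Argonaute of fed or injected double-stranded RNA, rde-1 (K08H10.7), stood at 0.09, 0.63 and 0.61. Its mean of 0.44 ± 0.30 passed narrowly (adjusted p = 0.0469) and did not pass without replicate 2 (adjusted p = 0.202) or without replicate 3 (adjusted p = 0.252). The spermatogenesis Argonautes differed from ergo-1 on every array: alg-3 (T22B3.2) gave 0.10, -0.19 and 0.10. Its partner alg-4 (ZK757.3) gave 0.11, -0.08 and -0.50. Neither passed (adjusted p = 0.995 and 0.444), and the 95% intervals of their means were -0.30 to 0.30 for alg-3 and -0.51 to 0.20 for alg-4. The value of alg-4 moved with the setting: it was 0.02 without replicate 3, and with array weights it was called lower (-0.34, adjusted p = 0.0456).

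Of 6 genes of the miRNA pathway, 3 were higher and 1 was lower, with a median of 0.53. Among all genes, 20.9% were higher and 23.5% lower. The Microprocessor cuts miRNA precursors in the nucleus, and both of its genes were higher: pash-1 (T22A3.5) at 0.51, 1.36 and 1.41, and drsh-1 (F26E4.10) at 0.36, 1.36 and 1.08. Replicate 1 gave the lowest value of each. Their means were 1.10 ± 0.51 (adjusted p = 0.00301) and 0.93 ± 0.51 (adjusted p = 0.00649), and the 2 probes of drsh-1 agreed at 0.94 and 0.93. The 2 miRNA Argonautes of the set, which are close relatives, differed: alg-2 (T07D3.7) gave 1.27, 0.49 and 0.98, while alg-1 (F48F7.1) gave 0.25, 0.01 and 0.15. The difference of alg-2 minus alg-1 was 1.02, 0.47 and 0.83, above 0 on each array. The mean of alg-2 was 0.91 ± 0.40 (adjusted p = 0.00367), whereas that of alg-1 was 0.14 ± 0.12 (adjusted p = 0.406), with a 95% interval of -0.15 to 0.43.

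The 2 GW182-type proteins that work with miRNA Argonautes to silence transcripts are encoded by ain-1 and ain-2. The values of ain-1 (C06G1.4) were -0.45, -0.72 and -0.25, a mean of -0.47 ± 0.23 or a 1.39-fold lower level, and it was the only one of the 43 genes called lower (adjusted p = 0.0269). Its 2 probes averaged -0.62 and -0.33. The call was lost without replicate 2 (-0.35, adjusted p = 0.177) and with arrays centred within runs of rows (-0.29, adjusted p = 0.123). Values of ain-2 (B0041.2) lay on both sides of 0, at 0.25, -0.10 and 0.05 (adjusted p = 0.699).

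Of the 4 genes of Dicer and its partners in trigger processing, 3 were higher, against 20.9% of all genes. Dicer, dcr-1 (K12H4.8), which cuts double-stranded RNA and miRNA precursors, gave 0.79, 1.30 and 1.36, with a mean of 1.15 ± 0.32 (adjusted p = 0.000825). Its double-stranded RNA-binding partner rde-4 (T20G5.11) gave 1.34, 1.10 and 1.04, or 1.16 ± 0.16 (adjusted p = 0.000379). The double-stranded RNA channel gene sid-1 (C04F5.1) averaged 1.06 ± 0.13 (adjusted p = 0.000493). The helicase gene drh-1 (F15B10.2), related to vertebrate virus sensors, stood apart at 0.07, 0.24 and 0.28, below each of the other members of its role on every array, and did not pass (adjusted p = 0.237). The 2 measured genes of the Dicer-associated ERI complex, which makes a class of endogenous primary siRNAs, were higher too. The values of eri-3 (W09B6.3) were 1.52, 1.04 and 1.13, and those of the exonuclease gene eri-1 (T07A9.5) were 0.57, 0.79 and 0.93 (adjusted p = 0.000451 and 0.00261).

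Of the RNA-dependent RNA polymerases, ego-1 (F26A3.3), the main enzyme of the germ line, had the highest ratio, with 0.78, 1.49 and 1.51. Its mean of 1.26 ± 0.41 was a 2.40-fold higher level (adjusted p = 0.000949). The polymerase of the ERI complex, rrf-3 (F10B5.7), gave 0.59, 1.24 and 1.18, or 1.00 ± 0.36 (adjusted p = 0.00189). The third, rrf-2 (M01G12.12), gave 0.19, 0.59 and 0.22 and did not pass (adjusted p = 0.0870). It did pass without replicate 1 (0.41, adjusted p = 0.0473) and with array weights (0.31, adjusted p = 0.0399), but under no other setting. Its 2 probes were far apart, at 0.79 ± 0.22 and -0.12 ± 0.25, so the mean of 0.33 describes neither. By limma over all probes, the first passed (adjusted p = 0.00311) and the other did not (adjusted p = 0.533). Whether rrf-2 counts as higher thus depends on the probe. Both measured partners of the polymerases were higher, against 20.9% of all genes. The Dicer-related helicase gene drh-3 (D2005.5) gave 0.30, 1.29 and 1.08, a mean of 0.89 ± 0.52 (adjusted p = 0.00852), and the Tudor protein gene ekl-1 (F22D6.6) averaged 0.74 ± 0.18 (adjusted p = 0.00294). The poly(U) polymerase known as CDE-1 is listed on this array as cid-1 (K10D2.3), which the naming rule does not catch. It stood at 1.21, 1.06 and 1.31, or 1.19 ± 0.13 (adjusted p = 0.000303).

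Mutator proteins gather in foci beside the P granules and amplify secondary siRNAs. Their genes were grouped with rde-12, another gene of siRNA amplification, and 7 of these 8 were higher, against 20.9% of all genes. The median of the 8 was 0.71, less than the 1.51 of the 10 secondary Argonautes. The scaffold gene of the foci, mut-16 (B0379.3), led with 1.29, 1.62 and 1.48, a mean of 1.46 ± 0.17 or 2.76-fold (adjusted p = 0.000161). The other 7 genes of this role averaged below 1. They were the helicase gene mut-14 at 0.93 ± 0.22, the helicase gene rde-12 at 0.76 ± 0.38, the nucleotidyltransferase gene rde-3 at 0.74 ± 0.02, the exonuclease gene mut-7 at 0.69 ± 0.12, mut-15 at 0.68 ± 0.25 and the endonuclease gene rde-8 at 0.45 ± 0.10. At the low end, rde-2 (F21C3.4), whose product binds MUT-7, gave 0.10, 0.69 and 0.45 and did not pass (adjusted p = 0.0583). It passed without replicate 1 (0.57, adjusted p = 0.00924) and with values as deposited (0.44, adjusted p = 0.0396). Centring within runs (0.45, adjusted p = 0.0141) and array weights (0.48, adjusted p = 0.00509) also gave a pass for rde-2. Under the other settings, leaving out replicate 2 or replicate 3 among them, it did not pass. For rde-8 the call was lost without replicate 2 (adjusted p = 0.0518), without replicate 3 (adjusted p = 0.146) and with centring within runs (0.23, adjusted p = 0.141). The small SD of rde-3 did not hold with that centring. It then gave 0.21, 0.62 and 0.57, a mean of 0.47 ± 0.22, and was still called higher (adjusted p = 0.0198). The nuclear silencing factor gene nrde-2 (T01E8.5), which acts in both germ line and soma, gave 0.19, 0.58 and 0.70 (adjusted p = 0.0277), and fell short of the threshold without replicate 2 (adjusted p = 0.108) and without replicate 3 (adjusted p = 0.210).

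Germline factors were then set beside somatic ones, with each gene placed, from general knowledge, by where its product is best known to act. Many of these genes also act elsewhere, so the contrast between the classes is not a clean one. The germline class held prg-1, prg-2, henn-1, csr-1, hrde-1, wago-1, wago-4, ego-1, drh-3, ekl-1, rde-3, rde-2, mut-7, mut-14, mut-15, mut-16 and rde-8. The genes wago-2 and wago-5 were left unplaced. Germline genes had a median of 0.93, and all but henn-1 and rde-2 passed, so that 15 of 17 were higher. Somatic genes had a median of 0.24. Of these 10, sago-2, sid-1 and alg-2 were called higher, ain-1 lower, and the remaining 6 neither. These 6 were nrde-3, sago-1, alg-1, ain-2, drh-1 and rrf-2, the last with probes that disagreed. Higher calls made up 88.2% of the germline class and 30% of the somatic class. Over all genes, 20.9% were higher and 23.5% were lower, so the somatic count lay near the share of all genes. The class medians were 0.80, 1.29 and 1.08 for germline genes on replicates 1 to 3, against 0.25, 0.22 and 0.25 for somatic genes. Germline minus somatic was therefore 0.55, 1.07 and 0.83, a mean of 0.82 ± 0.26 (SD, n = 3), or 1.05 with wago-2 and wago-5 counted as germline. The classes overlapped: 6 of the 17 germline genes lay above the highest somatic gene, sago-2, and 2 of the 10 somatic genes (sago-2 and sid-1) lay above the germline median. The placing is a description and no test was made of it.

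Argonautes alone separated the classes further. The 6 germline Argonautes were all higher, with a median of 1.89 and a lowest value of 1.29 for csr-1. The 5 somatic Argonautes had a median of 0.29, and 2 of them, sago-2 and alg-2, were higher. Among all genes, 20.9% were higher. Germline minus somatic was 1.61 among Argonautes, and only sago-2 of the somatic ones lay above csr-1. The 11 germline genes that encode no Argonaute had a median of 0.74. The 11 genes placed in both germ line and soma were all higher, ranging from rde-1 at 1.36-fold to ergo-1 at 2.84-fold. Their median log2 ratio was 1.00, or 2.01-fold, above the 0.93 of the whole germline class. Of the 3 male germline genes, 0 passed in either direction by limma with equal weights (adjusted p of 0.444 to 0.995). Also 0 had an unadjusted p under 0.05. Over all genes 44.4% passed either way, so a count of 0 among 3 genes says little. With array weights alg-4 was called lower (adjusted p = 0.0456).

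**Figure D2:**
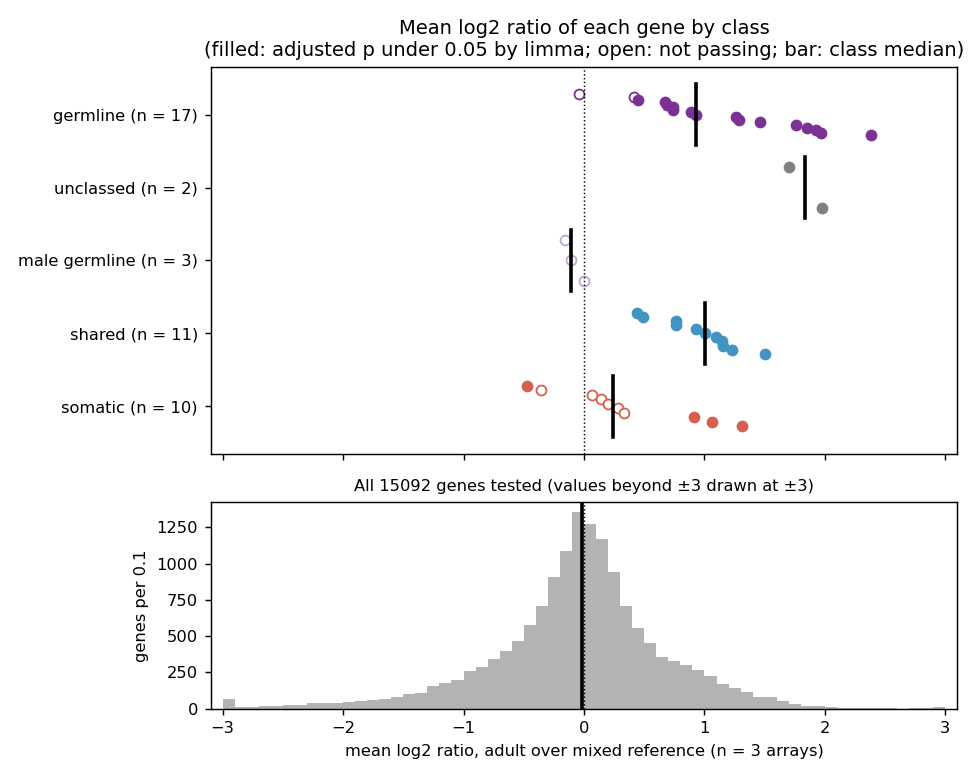
Mean log2 ratio of adult over mixed reference for each gene (points, n = 3 arrays) by the class it was placed in, with the class median as a bar, above the distribution of all 15092 genes. The germline median is 0.93 and the somatic median 0.24, while all genes centre on -0.02.

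Other genes of the same pathways, taken from lists drawn up by function, gave further counts, beside 20.9% higher and 23.5% lower over all genes. The other piRNA and nuclear RNA interference genes had a median of 0.91, with 19 of 22 higher and 3 below the threshold. The highest were simr-1 at 1.47 ± 0.27, which links piRNA targets to siRNA production, and hrde-2 at 1.35 ± 0.28, which acts with HRDE-1. The lowest were gtsf-1 at -0.11 ± 0.24 and prde-1, a factor for transcription of piRNA genes, at 0.43 ± 0.78. The place of gtsf-1 in this list, rather than among the siRNA genes, is not certain. For prde-1 the arrays split, with -0.47 on replicate 1 against 0.92 and 0.83 on replicates 2 and 3.

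The other siRNA genes had the lowest median of the 3 lists, 0.37, with 10 of 21 higher, 3 lower and 8 uncalled. The shares over all genes were 20.9% higher and 23.5% lower. The highest were alg-5 at 1.42 ± 0.21 and eri-9 at 1.23 ± 0.26. The Argonaute gene alg-5 is known for miRNAs rather than siRNAs, but it was counted in this list. The lowest were drh-2, a relative of drh-1, at -0.87 ± 0.64 and sid-5, which takes part in the spread of silencing between cells, at -0.82 ± 0.20. The other miRNA genes had a median of 1.15, with 14 of 15 higher and 1 uncalled. That list holds cid-1, described above beside the polymerases. Here the germline helicase gene cgh-1 at 2.29 ± 0.37 and lin-41 at 1.57 ± 0.10 were highest, and pup-3 at 0.45 ± 0.47 and the deadenylase gene ccr-4 at 0.51 ± 0.23 were lowest. Several genes of that list, cgh-1, lin-41 and gld-2 among them, also act in germ cells or oocytes.

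**Figure D3:**
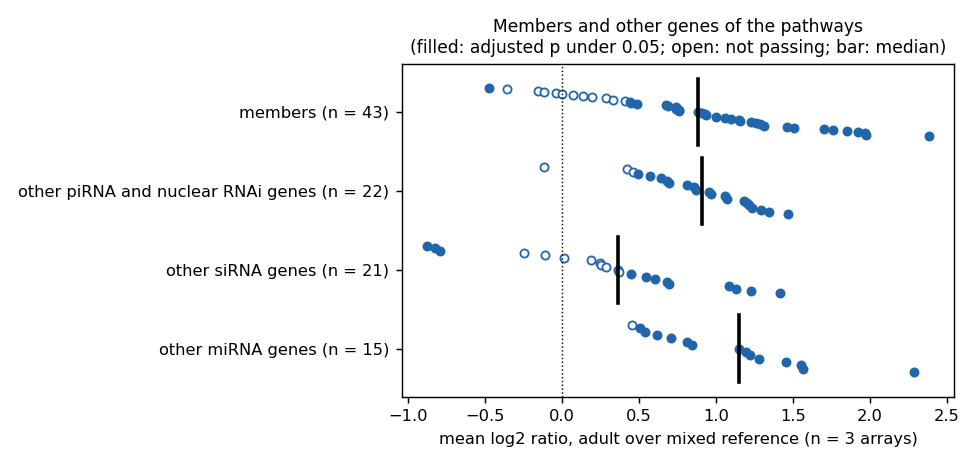
Mean log2 ratio of adult over mixed reference (n = 3 arrays) for the 43 genes and for the 3 lists of other pathway genes; filled points passed the test, bars are medians. The medians are 0.89, 0.91, 0.37 and 1.15 from top to bottom.

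Replicate 1 stood apart from the other arrays. Across the 43 genes, which are not independent replicates and share 3 arrays, replicate 1 correlated with replicate 2 at a Pearson's r of 0.81 and with replicate 3 at 0.87, whereas replicates 2 and 3 reached 0.95. Over all 15092 genes the same pairs gave 0.82, 0.85 and 0.92, so this was a feature of the array as a whole. Replicate 1 gave the lowest value for 22 of the 43 and the highest for 13, and its deviation from the mean of the others ranged from -0.89 for drh-3 to 0.56 for hrde-1. Over all probes this deviation changed with the row of the table. By position in a cycle of 4 runs, the mean run medians were 0.24, 0.06, -0.15 and -0.24. No other cycle length was compared. With arrays centred within 32 runs of rows, the SD was smaller for 28 of the 43 genes, and the median SD was 0.19 against 0.22. Neither this count nor those of lowest and highest values was made over all genes. After that centring, the gap of replicate 1 from the others remained for pash-1 (0.50, 1.27 and 1.26) and widened for prg-2 (2.31, 1.54 and 1.81). Of the 32 called genes, 30 kept call and sign with that centring, and 32 did so without replicate 1.

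**Figure D4:**
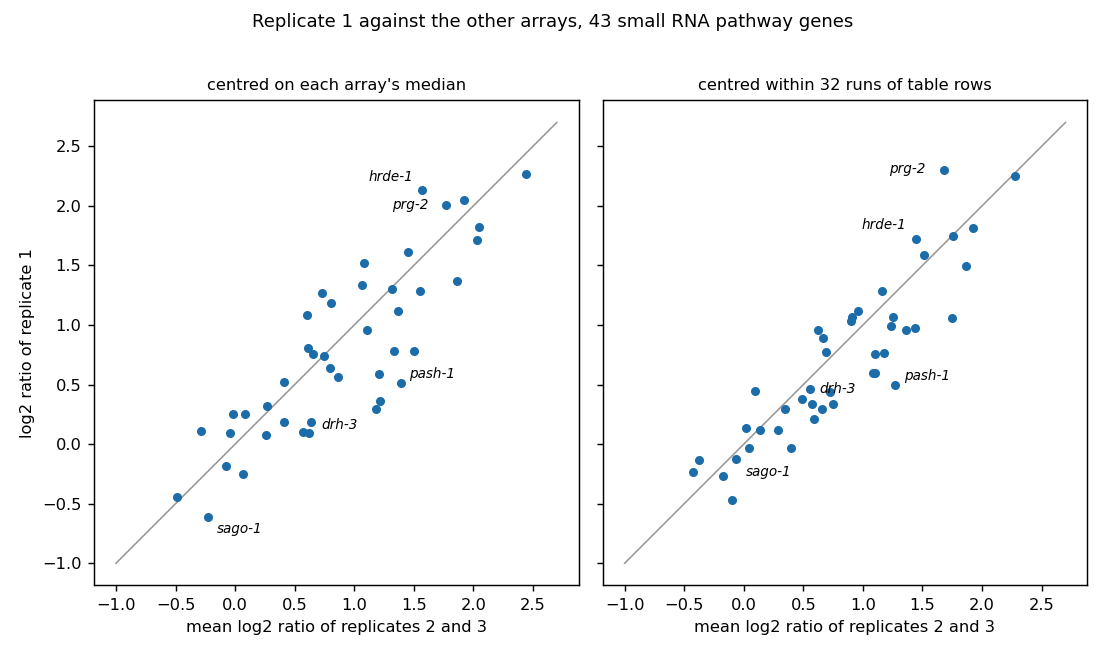
Log2 ratio on replicate 1 against the mean of replicates 2 and 3 for the 43 genes, with equality as a line, for arrays centred on their medians (left) and within 32 runs of table rows (right). On the left drh-3 lies 0.89 below the line and hrde-1 0.56 above it.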

How the data were processed

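The values, as deposited by the authors, are log2 ratios of the array's channels, 1 per probe and array for 20000 probes. No label or header states the scale, which was read from the values: 100% of 58013 values within 2 of 0 are the log2 of a ratio with 3 decimals. How the authors corrected background, normalized and centred the log2 ratios, and which dyes they used, is stated neither in the labels nor in the file. Spot brightness was not used. GEO's platform annotation gave 15655 probes 1 gene symbol, 198 several and 4147 none.

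Each array was centred on its median, probes of a gene were averaged, and 15092 genes with values on all 3 arrays were tested against 0 with limma 3.58.1 in R 4.3.3 (lmFit, eBayes, Benjamini-Hochberg, threshold 0.05). Every adjusted p comes from that fit or a named alternative. No p was computed for a class or list. The test was run on simulated data. A first version, with each gene's raw SD, missed the recovery aimed at. It was then replaced by one with the fit's own estimates of spread, which met it, but whose false calls were well above the share the threshold aims at, so adjusted p-values here may be too small.

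Every gene of the set was named, with array values for all Argonautes, all polymerases and the ends of each role. The members, classes and lists were chosen with earlier results of these data known.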

Additional observations from a re-analysis of the deposited data

How the results depend on the processing

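Between 28 and 34 of the 43 genes were called when 1 replicate was left out (28 to 33 higher, 0 to 1 lower), with 14 to 16 of the germline and 3 to 4 of the somatic genes higher and germline minus somatic medians at 0.69 to 0.95. Over all genes, 22.6%, 17.8% and 15.1% were higher without replicates 1, 2 and 3. The genes called lower numbered 0 with centring within 32 runs and 3 with array weights (0.37 for replicate 1), which also called 5 somatic genes higher and 55.1% of all genes either way. Testing against 1.5-fold, which asks for a larger effect, left 16 called (16 higher, 0 lower), 8 of them germline. It left 6.04% of all genes higher. Argonautes alone, a smaller set, gave 6 germline genes higher and a class difference of 1.61. Leaving alg-2 and sago-2 out of the somatic class, chosen after seeing the data, left 1 somatic gene higher. Values as deposited, MAD scaling, quantile normalization, genes on at least 2 arrays, the median of probes and a robust prior moved no count by over 1.5 times, and no called gene changed sign under any setting. The causes were not tested. No paired analysis was possible because there is 1 group of samples. Spot brightness was not used, so no value could be set against background.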
